A study of Mus musculus with 9 samples.

Results

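The signal transducers and activators of transcription (STATs) and their feedback inhibitors of the SOCS family were followed across mouse macrophages exposed to oxidized low-density lipoprotein (ox-LDL), with and without the phosphatase MKP5. The members were taken by gene symbol: the STAT genes Stat2, Stat3, Stat5a, Stat5b and Stat6 and the inhibitor genes Socs1, Socs2, Socs3 and Cish, 9 of the 56775 genes listed for each library. All 9 were among the 14794 genes tested, although Socs2 passed the filter on low values only through the 24 h libraries. Macrophages were grown for 7 days from the marrow of C57BL/6 mice in medium holding 15% L-929 supernatant, a source of the macrophage growth factor M-CSF made by those fibroblasts. The groups were MKP5-/- macrophages after 24 h with ox-LDL at 20 µg/mL, wild-type (WT) macrophages after the same 24 h, and WT macrophages at 0 h without ox-LDL, with 3 RNA-seq libraries each. MKP5-/- cells lack the dual-specificity phosphatase encoded by Dusp10, which acts on stress-activated MAP kinases, and ox-LDL is the modified lipoprotein that loads macrophages in atherosclerotic plaques. Neither untreated MKP5-/- cells nor an untreated WT culture of 24 h was analysed here, so ox-LDL is joined with the additional day of culture, and what differs between the genotypes is known in treated cells alone. The labels do not say whether replicates came from separate animals or cultures, and p-values therefore measure the spread between these libraries, which may be technical.

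STATs wait in the cytoplasm until a cytokine receptor and its bound Janus kinase (JAK) phosphorylate them, after which they pair, enter the nucleus and switch on target genes. Stat2 joins Irf9 in the complex that carries type I interferon signals, Stat6 carries IL-4 and IL-13 signals and shapes alternatively activated macrophages, Stat3 carries IL-6 and IL-10 signals, and the closely related Stat5a and Stat5b carry GM-CSF and other growth cytokine signals. The SOCS proteins and CISH are made in response to STAT activity and shut the same receptors or kinases down, so that their transcripts are commonly read as a trace of recent cytokine signalling.

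The promoters of the 4 members in which a STAT or interferon response motif was found are shown because those members hold both of the largest falls and the largest called difference between the genotypes. Sequences are RefSeq promoter windows on GRCm38.p6, 250 bases before to 50 bases after the annotated start, read 5′ to 3′ on the strand of the gene, and capitals mark the motif letters. The window of Socs3 lies at chr11:117969317-117969616 on the minus strand, that of Cish at chr9:107296409-107296708 on the plus strand, that of Socs1 at chr16:10785487-10785786 on the minus strand and that of Stat2 at chr10:128270248-128270547 on the plus strand.
Socs3: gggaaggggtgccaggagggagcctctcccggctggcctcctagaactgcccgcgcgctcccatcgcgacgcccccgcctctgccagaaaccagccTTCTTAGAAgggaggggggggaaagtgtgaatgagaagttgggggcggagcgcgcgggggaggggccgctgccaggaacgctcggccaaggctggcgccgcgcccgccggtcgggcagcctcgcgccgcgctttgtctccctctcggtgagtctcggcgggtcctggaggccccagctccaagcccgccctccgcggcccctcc
Cish: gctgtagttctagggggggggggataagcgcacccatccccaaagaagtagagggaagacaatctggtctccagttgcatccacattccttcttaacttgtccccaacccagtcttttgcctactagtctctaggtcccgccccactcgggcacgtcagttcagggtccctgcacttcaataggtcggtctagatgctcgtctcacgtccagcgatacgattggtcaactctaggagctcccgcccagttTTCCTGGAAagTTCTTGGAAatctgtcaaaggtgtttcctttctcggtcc
Socs1: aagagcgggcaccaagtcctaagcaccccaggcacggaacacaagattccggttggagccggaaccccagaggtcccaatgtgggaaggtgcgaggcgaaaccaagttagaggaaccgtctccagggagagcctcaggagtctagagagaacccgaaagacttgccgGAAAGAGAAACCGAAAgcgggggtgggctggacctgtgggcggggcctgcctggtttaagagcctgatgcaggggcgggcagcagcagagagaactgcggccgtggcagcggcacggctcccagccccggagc
Stat2: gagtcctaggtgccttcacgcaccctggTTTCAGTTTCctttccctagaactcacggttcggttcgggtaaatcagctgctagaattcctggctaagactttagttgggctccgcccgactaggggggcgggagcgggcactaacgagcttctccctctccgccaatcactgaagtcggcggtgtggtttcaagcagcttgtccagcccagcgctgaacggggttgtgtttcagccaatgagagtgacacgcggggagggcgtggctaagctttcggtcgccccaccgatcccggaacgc
The motifs searched were TTCNNNGAA, the palindromic core of STAT sites, and the core of the interferon-stimulated response element, written GAAA, any 2 bases and GAAA, on both strands. Matches to one motif may overlap matches to the other or to itself. Counted from 0 at the annotated start, Socs3 held 1 STAT core at -154 to -146, and Cish held 2, at 0 to 8 and at 11 to 19. Socs1 held 2 overlapping interferon response cores that span -83 to -68, and Stat2 held 1 on the opposite strand at -222 to -213. Among 32851 promoter windows of 27025 genes, 8.3% held the STAT core and 3.44% held the interferon response core. Neither was found in the windows of Stat3, Stat5a, Stat5b or Stat6. RefSeq windows were matched for 8 of the 9 members, and none was matched for Socs2. In the GENCODE M21 annotation Stat5b, Stat5a and Stat3 lie on chromosome 11, where Socs3 also lies, while Stat2, Stat6 and Socs2 lie on chromosome 10.

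**Figure D1:**
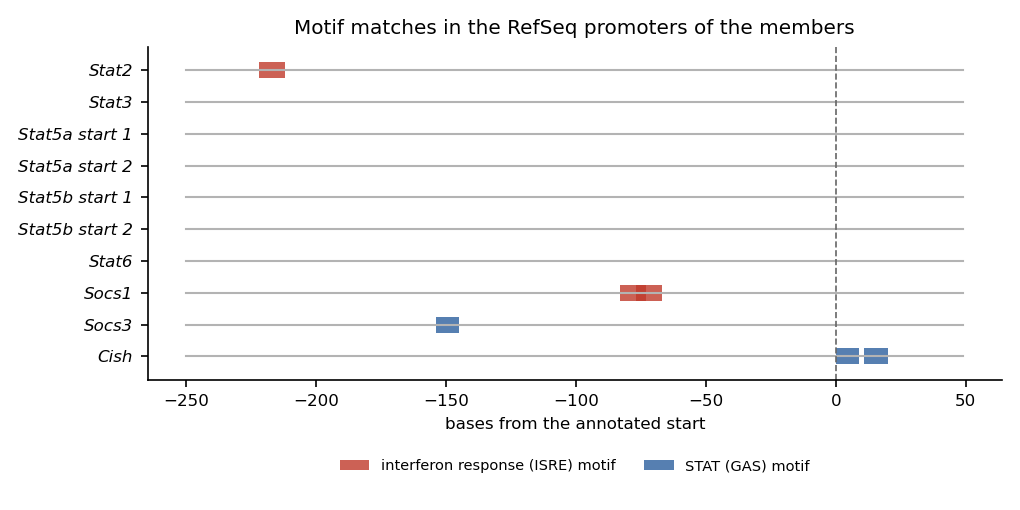
Positions of motif matches in the promoter windows of the 8 members with a RefSeq window; the x axis gives bases from the annotated start (dashed line at 0), each grey line is 1 window, red boxes mark the interferon response core and blue boxes the STAT core. Stat2 and Socs1 hold the red core, Socs3 and Cish the blue one, and the others neither.

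Levels are RPKM, the recovered reads scaled to gene length and to the TMM-scaled depth of the library that the deposited values imply. Libraries held 11100568 to 14329705 recovered reads in MKP5-/-, 17391647 to 19823694 in WT after 24 h and 15692291 to 17154806 in WT at 0 h, so the MKP5-/- libraries were the shallowest. Dusp10 had 4, 6 and 4 reads in MKP5-/-, against 43, 38 and 40 in WT after 24 h and 41, 48 and 44 in WT at 0 h, and was thus lowest in every library labelled MKP5-/-. All 8 macrophage markers were detected in every group, with a summed level of 11700 to 13200 CPM (reads relative to depth, without gene length) in MKP5-/-, 16700 to 19500 in WT after 24 h and 7080 to 7270 in WT at 0 h. Lyz2 was a large part of these sums, averaging 5756.8 CPM in MKP5-/-, 10892.3 in WT after 24 h and 3024.6 in WT at 0 h. Neutrophil and precursor markers, a list of 10, summed to 41.2 to 46.4 CPM in MKP5-/- (Camp, Elane, Mpo and Retnlg at 0 reads), 44.1 to 53.1 in WT at 24 h (Camp, Elane and Retnlg at 0 reads) and 133 to 145 in WT at 0 h. The T cell, B cell, dendritic cell, erythroid and mast cell lists each stayed at or below 5.76 CPM in every library. In bulk RNA, fewer cells of a type and less RNA per cell cannot be told apart, which holds for every level given here. Differences are log2 fold changes from limma over all 9 libraries with p-values adjusted by Benjamini and Hochberg over the 14794 genes, and a gene was called at an adjusted p under 0.05. By these calls, 5 macrophage markers were higher and 3 lower in WT cells at 24 h than at 0 h, beside 27.4% and 28% of all genes. Between the genotypes at 24 h, 3 were higher and 3 lower in MKP5-/- (11.8% and 16.8% of all genes) and 2 were not called. The comparisons share libraries with each other and are not independent.

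After 24 h with ox-LDL, 8 of the 9 members differed from 0 h in WT cells: Stat3, Stat5a, Stat5b, Socs2 and Socs3 rose, and Stat2, Stat6 and Socs1 fell. Cish did not pass the test. Of all genes tested, 55.4% were called in this comparison, 27.4% higher and 28% lower. The members' count includes Socs2, which passed the filter on low values only through the group where it was high, and nothing is read from it. Values of the groups did not overlap for any of the 9 members, against 64% of all genes. The median difference was 0.59 on the log2 scale over the members and 0.01 over all genes. Between the genotypes at 24 h, 3 members passed the test, Socs3, Stat5b and Stat5a, all lower in MKP5-/-, and 6 did not. The background here was 28.6% of all genes called, 11.8% higher and 16.8% lower, and 5 of 9 members had groups that did not overlap, against 44.9% of all genes. The members' median was -0.16 and that of all genes -0.05. MKP5-/- cells at 24 h against WT cells at 0 h gave the same count as the ox-LDL comparison, 5 members higher and 3 lower, beside 24.9% and 31.2% of all genes (56.2% in either direction). For 7 of the 9 members these groups did not overlap, against 63.3% of all genes. The members' median was 0.23 and that of all genes -0.02.

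**Figure D2:**
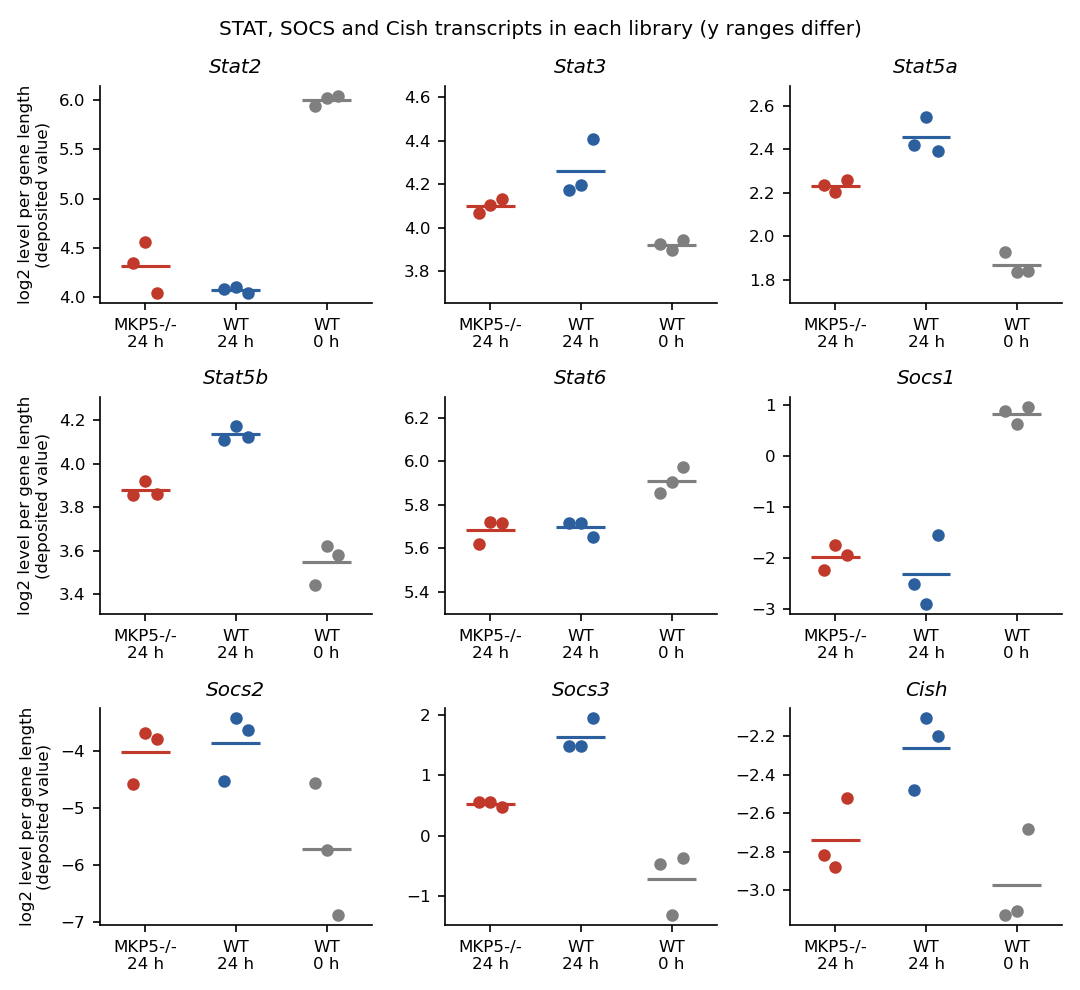
Deposited log2 value (log2 level per gene length, y axis, with a range of its own in each panel) of the 9 members in MKP5-/- at 24 h (red), WT at 24 h (blue) and WT at 0 h (grey); each point is 1 library and each line the group mean. Stat2 and Socs1 lie highest in WT at 0 h, and Socs3 has 3 separate levels with MKP5-/- in the middle.

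Stat2, the interferon partner of Irf9, had the largest difference from 0 h among the 5 STAT members. It was at 20.3, 23.6 and 16.4 RPKM in MKP5-/-, 17.0, 17.2 and 16.4 RPKM in WT after 24 h, and 61.3, 65.2 and 66.0 RPKM in WT at 0 h. The libraries at 0 h all lay far above those at 24 h, and at 24 h MKP5-/- replicate 3 lay within the WT range while the other two lay above it. In WT cells Stat2 was 3.81-fold lower at 24 h than at 0 h (log2 difference -1.93, SE 0.10, limma adjusted p = 7.65e-08). In MKP5-/- cells at 24 h it was 3.22-fold lower than in WT cells at 0 h (log2 -1.69, adjusted p = 2.39e-07). Between the genotypes the log2 difference was 0.24 (95% interval 0.01 to 0.47, limma adjusted p = 0.105), which did not pass the test. On leaving out 1 library the adjusted p was up to 0.326, and the difference ranged from 0.12 to 0.38. It passed the test in 1 of these 9 fits, that without MKP5-/- replicate 3 (0.38, adjusted p of 0.00411). With upper-quartile scaling it was 0.33 with an adjusted p of 0.049.

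Irf9, which binds DNA in the complex with Stat2, averaged 12.8 ± 0.855 RPKM in MKP5-/-, 13.4 ± 0.716 in WT after 24 h and 17.5 ± 0.513 in WT at 0 h (SD, n = 3 each). Its fall in WT cells was -0.38 on the log2 scale (limma adjusted p = 0.000417), against -1.93 for Stat2. All 15 tested genes of a list of Irf9 and interferon-stimulated genes fell in WT cells at 24 h, with a median of -3.44, beside 28% of all genes. Of these, 5 were higher in MKP5-/- than in WT after 24 h and 10 did not pass the test (median 0.49), beside 11.8% of all genes called higher. Of the 5 calls, that of Mx2 (0.59) was lost in 12 of 18 settings, with adjusted p up to 0.136, and that of Oasl2 (0.50) in 2. Irf7, the interferon regulatory factor that amplifies type I interferon production, was one of the 5. It had 1243, 1582 and 925 reads in MKP5-/-, 943, 896 and 768 in WT after 24 h, and 9309, 11144 and 10262 in WT at 0 h. MKP5-/- replicate 3, the lowest of its group for Stat2, was also the lowest for Irf7. The Irf7 difference between genotypes was 1.00 (limma adjusted p = 0.00366). The genes whose pattern over the 9 libraries was nearest to Stat2, by the root mean square difference of their centred log2 values over 12429 genes, included Dhx58, an RNA helicase that regulates RIG-I-like sensing, at 0.07 and Rtp4, an interferon-stimulated gene, at 0.08. Dhx58 had log2 differences of 0.30 between the genotypes and -1.98 between 24 h and 0 h in WT, and Rtp4 had 0.30 and -1.88, against 0.24 and -1.93 for Stat2. Both genes were picked for their likeness to Stat2 in these libraries, so their values are a description.

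Stat6, the IL-4 and IL-13 factor, was the STAT gene with the highest level among the members in both 24 h groups. Its levels were 49.1, 52.7 and 52.6 RPKM in MKP5-/-, 52.6, 52.6 and 50.3 RPKM in WT after 24 h, and 57.8, 59.8 and 62.9 RPKM in WT at 0 h. The 24 h groups overlapped and both lay below 0 h. Stat6 fell slightly in WT cells (log2 -0.21, SE 0.05, limma adjusted p = 0.0034), and it was also lower in MKP5-/- at 24 h than in WT at 0 h (log2 -0.23, adjusted p = 0.00265, and with upper-quartile scaling -0.10 and 0.0546). Between the genotypes the difference was -0.01, with a 95% interval of -0.12 to 0.10 (limma adjusted p = 0.89). Because Stat2 fell much further than Stat6, the order of these STATs turned round: Stat6 stood at 2.41, 2.24 and 3.20 times Stat2 in the MKP5-/- libraries, 3.10, 3.06 and 3.07 times in WT after 24 h, and 0.944, 0.917 and 0.953 times in WT at 0 h. Stat2 supplied 19.3%, 20.8% and 15.5% of the summed level of the 5 STAT genes in MKP5-/-, 15.4%, 15.3% and 14.8% in WT after 24 h, and 41.1%, 41.9% and 41.3% in WT at 0 h. The summed STAT level itself was 105 to 113 RPKM in MKP5-/-, 110 to 112 RPKM in WT after 24 h and 149 to 160 RPKM in WT at 0 h.

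Stat3, the factor of IL-6 and IL-10 signalling, was at 16.8, 17.2 and 17.5 RPKM in MKP5-/-, 18.1, 18.3 and 21.3 RPKM in WT after 24 h, and 15.2, 14.9 and 15.4 RPKM in WT at 0 h. The groups did not overlap, with MKP5-/- between the WT groups. Stat3 rose by 0.34 on the log2 scale in WT cells (SE 0.07, limma adjusted p = 0.000971). Between the genotypes the difference of -0.16 (95% interval -0.30 to -0.01) did not pass the test at an adjusted p of 0.0913. It was called in 1 of 18 alternative settings, limma-voom, at 0.0498. In the others it was not called, with adjusted p up to 0.399. MKP5-/- cells at 24 h were 0.18 above WT cells at 0 h (limma adjusted p = 0.0349). That call was lost in 7 of 18 alternative settings, with adjusted p up to 0.0932, among them leaving out any 1 of the WT 0 h libraries or replicate 2 or 3 of MKP5-/- (0.0646 to 0.0932).

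Stat5a and Stat5b, the factors downstream of the GM-CSF receptor, moved in the same direction in each comparison. Stat5b was at 14.5, 15.2 and 14.5 RPKM in MKP5-/-, 17.3, 18.0 and 17.4 RPKM in WT after 24 h, and 10.9, 12.3 and 12.0 RPKM in WT at 0 h. Stat5a was at 4.71, 4.60 and 4.79 RPKM in MKP5-/-, 5.35, 5.86 and 5.25 RPKM in WT after 24 h, and 3.80, 3.56 and 3.58 RPKM in WT at 0 h. For both genes every MKP5-/- library lay between the WT groups. In WT cells both rose 1.5-fold at 24 h, with limma adjusted p of 7.57e-06 for Stat5b and 5.14e-05 for Stat5a. In MKP5-/- cells at 24 h Stat5b was 1.19-fold lower than in WT (log2 -0.26, SE 0.06, limma adjusted p = 0.00993), a call that held in all 18 alternative settings. The difference of Stat5a between the genotypes, -0.22 (SE 0.08, adjusted p = 0.0489), lay at the threshold. It was lost in 15 of 18 alternative settings, which include leaving out any 1 of the 9 libraries (adjusted p 0.0605 to 0.176). Against WT at 0 h, MKP5-/- cells at 24 h were higher in Stat5b by 0.33 (limma adjusted p = 0.00065) and in Stat5a by 0.37 (adjusted p = 0.00171). Stat5b stood at 3.04 to 3.30 times Stat5a in MKP5-/-, 3.08 to 3.32 times in WT after 24 h and 2.86 to 3.45 times in WT at 0 h, so the ratio overlapped across groups. The coding parts of Stat5a and Stat5b are nearly identical, and how the counting treated reads that match both is not given in the sources used here, so the split between these genes is uncertain.

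Socs1, which inhibits JAK kinases directly and is best known for restraining interferon signals, was the inhibitor with the largest fall. It had 8, 13 and 12 reads in MKP5-/-, 10, 8 and 22 reads in WT after 24 h, and 98, 86 and 104 reads in WT at 0 h. The 24 h groups overlapped, and every 0 h library held several times the reads of any 24 h library. The levels were 0.246 ± 0.0442 RPKM in MKP5-/-, 0.21 ± 0.11 RPKM in WT after 24 h and 1.76 ± 0.215 RPKM in WT at 0 h (SD, n = 3 each). In WT cells Socs1 was 8.76-fold lower at 24 h (log2 -3.13, SE 0.34, limma adjusted p = 1.33e-05), and in MKP5-/- at 24 h it was 6.91-fold lower than in WT at 0 h (log2 -2.79, adjusted p = 3.73e-05). Between the genotypes the difference was 0.34, with a 95% interval of -0.41 to 1.10 (limma adjusted p = 0.475), which at this depth leaves room for a difference of more than 1 log2 unit. Of 9 tested neutrophil and precursor markers, 8 were also lower in each 24 h group than in WT at 0 h, beside 28% of all genes in WT and 31.2% in MKP5-/-. Each of the 8 averaged 0.3232 CPM or less in both 24 h groups. They passed the filter on low values through WT at 0 h, where they were high, so nothing is read from this count. Csf3r was higher (log2 0.61 in WT and 0.41 in MKP5-/-). Csf3r alone averaged 42.2 CPM in MKP5-/-, 48.7 CPM in WT after 24 h and 31.9 CPM in WT at 0 h, and so made up most of the 24 h sums. The part of these markers in the falls of Socs1 and Stat2 was not tested. The genes nearest to Socs1 in pattern included Ccr2, the chemokine receptor of inflammatory monocytes, at 0.31, and Slc6a13, a GABA transporter, at 0.32 by the same measure.

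Socs3, the inhibitor of receptors that contain gp130, was the member that rose most in WT cells and the one with the largest called difference between the genotypes. It had 58, 65 and 66 reads in MKP5-/-, 165, 176 and 252 reads in WT after 24 h, and 38, 22 and 41 reads in WT at 0 h. These correspond to 1.46, 1.45 and 1.38 RPKM in MKP5-/-, 2.79, 2.79 and 3.86 RPKM in WT after 24 h, and 0.714, 0.391 and 0.767 RPKM in WT at 0 h. None of the 3 groups overlapped another: every WT library at 24 h lay above every MKP5-/- library, and these lay above every 0 h library. In WT cells Socs3 rose 5.13-fold at 24 h (log2 2.36, SE 0.24, limma adjusted p = 7.98e-06). In MKP5-/- cells at 24 h it was 2.16-fold lower than in WT (log2 -1.11, SE 0.24, 95% interval -1.64 to -0.58, adjusted p = 0.00672). It was still 2.37-fold higher in MKP5-/- at 24 h than in WT at 0 h (log2 1.25, SE 0.24, limma adjusted p = 0.00109). All of these calls held in the 18 alternative settings, with adjusted p for the genotype difference between 0.00026 and 0.0302. By size, 311 genes were at or beyond its fall between the genotypes, Socs3 included, and 283 at or beyond its rise in WT cells.

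The summed level of fibroblast and smooth muscle markers had the same order of groups as Socs3: all 10 were detected in each group, with a sum of 8.78 to 20.6 CPM in MKP5-/-, 99.7 to 121 in WT after 24 h and 3.24 to 5.11 in WT at 0 h, and their part in the Socs3 result was not tested. Of the 8 tested, 7 were lower in MKP5-/- than in WT at 24 h, beside 16.8% of all genes, and Pdgfra was not called. Of the same 8, 4 were higher in MKP5-/- at 24 h than in WT at 0 h, beside 24.9% of all genes, while Pdgfra, Pdgfrb, Acta2 and Tagln were not called. Col3a1 averaged 0.48 CPM in MKP5-/-, 3.85 in WT after 24 h and 0.05 in WT at 0 h. It passed the filter on low values mainly through WT at 24 h, where it was high. The genes nearest to Socs3 in pattern were Ypel2 at 0.26, the circadian clock gene Per3 at 0.28 and Dnajc28, a member of the DnaJ chaperone family, at 0.29. Each of them was lower in MKP5-/- than in WT at 24 h, by -0.81 for Ypel2, -1.08 for Per3 and -0.76 for Dnajc28, and higher in WT at 24 h than at 0 h, by 2.49, 2.09 and 1.82, on the log2 scale. These genes were picked for this pattern, and their values are a description.

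**Figure D3:**
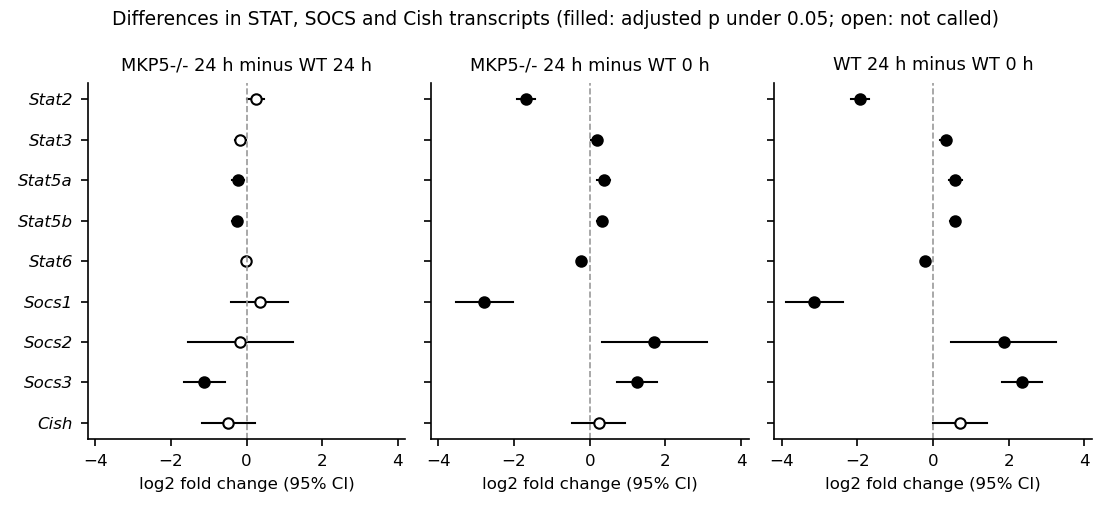
Log2 fold change of the 9 members from limma in each comparison (x axis), with bars for the 95% confidence interval; filled points passed an adjusted p of 0.05 and open points did not. Socs3 is at -1.11 between the genotypes and at 2.36 in WT at 24 h against 0 h, where Socs1 is at -3.13 and Stat2 at -1.93.

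Socs2 and Cish, which both act on receptors that use Stat5, were present at few reads. Socs2 had 5, 11 and 11 reads in MKP5-/-, 8, 19 and 17 reads in WT after 24 h, and 7, 3 and 1 reads in WT at 0 h. The WT groups did not overlap, while MKP5-/- overlapped both. Its log2 difference in WT cells was 1.87 (SE 0.63, limma adjusted p = 0.0263), and 1.71 for MKP5-/- at 24 h against WT at 0 h (adjusted p = 0.039). Both calls were unstable. The WT call was lost without replicate 2 or 3 of WT at 0 h (adjusted p 0.0581 and 0.106), without replicate 2 or 3 of WT at 24 h (0.09 and 0.0777), and without the filter on low values (0.0567). That of MKP5-/- against 0 h was lost in 9 of 17 settings, with adjusted p up to 0.15 on leaving out replicate 3 of WT at 0 h. Leaving out replicate 2 of WT at 0 h, or replicate 2 or 3 of either 24 h group, also ended it (0.0506 to 0.104). Between the genotypes the difference was -0.16, with a wide 95% interval of -1.55 to 1.24 (limma adjusted p = 0.871). Zkscan4, Slit3 and Sugct were nearest to Socs2 in pattern, at 0.41, 0.42 and 0.45, further off than those named for Stat2, Socs1 and Socs3.

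Cish had 12, 13 and 18 reads in MKP5-/-, 23, 32 and 31 reads in WT after 24 h, and 13, 14 and 18 reads in WT at 0 h. In levels this was 0.146 ± 0.0211 RPKM in MKP5-/-, 0.206 ± 0.0276 RPKM in WT after 24 h and 0.125 ± 0.0234 RPKM in WT at 0 h (SD, n = 3 each). Every WT library at 24 h lay above every library of the other groups, which overlapped each other. Neither difference passed the test: the log2 difference in WT cells was 0.71 (95% interval 0.0045 to 1.41, limma adjusted p = 0.082) and that between the genotypes was -0.48 (95% interval -1.18 to 0.23, adjusted p = 0.285). The WT difference was called in 1 of 17 settings, at an adjusted p of 0.00751 when the mean-variance trend and the robust option were left out. MKP5-/- cells at 24 h differed from WT cells at 0 h by 0.23 (adjusted p = 0.555).

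Among the 4 inhibitor members, Socs3 had the highest level in every 24 h library and Socs1 in every 0 h library. The 4 inhibitor genes summed to 1.84, 1.95 and 1.87 RPKM in MKP5-/-, 3.18, 3.24 and 4.49 RPKM in WT after 24 h, and 2.70, 2.04 and 2.86 RPKM in WT at 0 h. Socs3 supplied 79.6%, 74.6% and 73.8% of that sum in MKP5-/-, 87.9%, 86.2% and 86.0% in WT after 24 h, and 26.5%, 19.2% and 26.8% in WT at 0 h. The ratio of Socs3 to Socs1 was 7.29, 5.03 and 5.53 in MKP5-/-, 16.6, 22.1 and 11.5 in WT after 24 h, and 0.390, 0.257 and 0.397 in WT at 0 h. Among all tested genes, ordered by level, Socs3 was at percentile 31.4 in MKP5-/-, 45.6 in WT after 24 h and 21.2 in WT at 0 h. Stat5a, the STAT member with the lowest level, was at 55.7 in MKP5-/-, 58.5 in WT after 24 h and 47.9 in WT at 0 h.

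**Figure D4:**
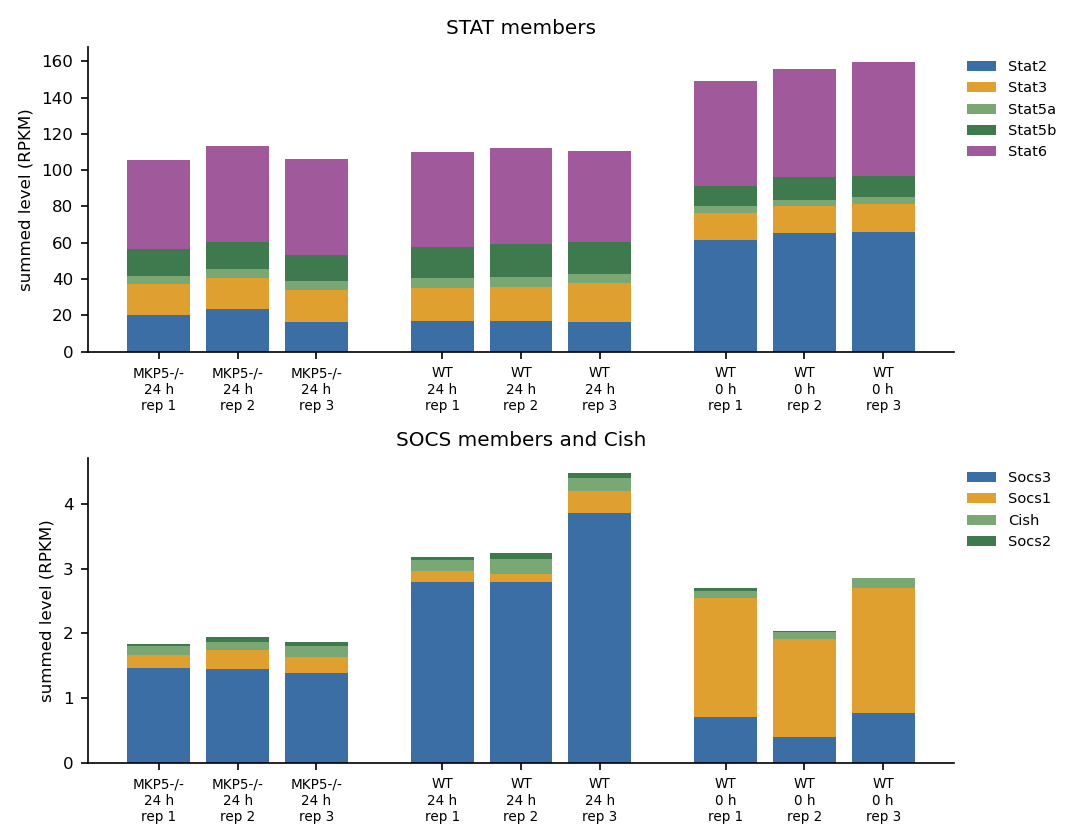
Summed level in RPKM (y axis) of the 5 STAT genes (top) and of Socs1, Socs2, Socs3 and Cish (bottom) in each of the 9 libraries, with a colour for each gene. Stat2 makes up 14.8% to 20.8% of the STAT sum in the 24 h libraries and 41.1% to 41.9% in WT at 0 h, and the lower panel is mostly Socs3 at 24 h and mostly Socs1 at 0 h.

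Of 17 ligand genes listed, 6 were tested, and the other 11 had at most 17 reads each over all 9 libraries. Ifng, Il13, Csf2 and Csf3 had no read in any library, which at 143683218 reads allows up to 0.0209 CPM. Il6, a main Stat3 ligand, had 0, 0 and 0 reads in MKP5-/-, 1, 1 and 0 in WT after 24 h, and 0, 7 and 0 in WT at 0 h. Osm, oncostatin M, was at 1.81 ± 0.463 RPKM in MKP5-/-, 2.77 ± 0.453 in WT after 24 h and 4.63 ± 0.4 in WT at 0 h (SD, n = 3 each). It fell in WT cells (log2 -0.75, limma adjusted p = 0.00324) and was lower in MKP5-/- than in WT at 24 h (log2 -0.62, adjusted p = 0.0219, lost in 4 of 18 settings). Ebi3, a subunit of IL-27, was at 34.2 ± 1.43 RPKM in MKP5-/-, 42.8 ± 1.29 in WT after 24 h and 35.0 ± 2.34 in WT at 0 h, with a difference of -0.32 between the genotypes (limma adjusted p = 0.00244). Clcf1, another gp130 cytokine, was the ligand that was higher in MKP5-/- (log2 1.39, adjusted p = 0.045, lost in 8 of 17 settings). It had 18, 17 and 17 reads in MKP5-/-, 6, 9 and 14 in WT after 24 h, and 1, 2 and 4 in WT at 0 h. Clcf1 thus passed the filter on low values through the group where it was high, and nothing is read from its calls. It also rose in WT cells at 24 h, as did Ebi3 and Il15, while Il27 and Osm fell. The rise of Il15 (0.30) was lost in 6 of 18 settings, with adjusted p up to 0.144.

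Receptor transcripts mostly rose with ox-LDL. Of 23 tested receptor genes, 16 rose and 4 fell in WT cells, with a median of 0.57, beside 27.4% and 28% of all genes. The rise of Ifnar1 (0.14) was lost in 5 of 18 settings. The rises with the smallest p were in Csf2rb, the signalling chain of the GM-CSF and IL-3 receptors that activates Stat5 (log2 1.69, limma adjusted p = 4.21e-09), Il10ra (1.43, 4.55e-09), Ifngr1 (1.26, 5.92e-09) and Csf2rb2 (1.23, 1.87e-08). The falls were in Il12rb1 (-3.40), Il7r (-1.15), Il2rg (-0.85) and Il6st (-0.22, lost in 3 of 18 settings), of which Il6st encodes gp130. Il12rb1 passed the filter on low values through WT at 0 h, the group where it was high, and nothing is read from its call. Csf2rb and Csf2rb2 are near-identical copies, and the split of reads between them is uncertain. Between the genotypes 8 receptors were higher in MKP5-/-, 5 were lower and 10 did not pass the test, with a median of -0.03, beside 11.8% higher and 16.8% lower among all genes. Of the lower ones, Ifnar2 (-0.20) was lost in 8 of 18 settings and Il10ra (-0.21) with upper-quartile scaling. Il6ra, the IL-6 receptor upstream of Stat3, was at 12.8 ± 0.765 RPKM in MKP5-/-, 23.8 ± 3.45 in WT after 24 h and 9.76 ± 0.475 in WT at 0 h (log2 -0.89 between the genotypes, limma adjusted p = 0.000108). Il4ra, the IL-4 and IL-13 receptor upstream of Stat6, was at 20.8 ± 1.99 RPKM in MKP5-/-, 35.0 ± 2.1 in WT after 24 h and 10.8 ± 0.739 in WT at 0 h (log2 -0.75, adjusted p = 0.00011). Both receptor genes, like Socs3, stood highest in WT at 24 h with MKP5-/- between the WT groups. Il2rg, the common gamma chain, had the reverse order, at 39.4 ± 1.04 RPKM in MKP5-/-, 22.4 ± 1.9 in WT after 24 h and 40.4 ± 1.46 in WT at 0 h (log2 0.82 between the genotypes, limma adjusted p = 1.32e-05), and Il7r was also higher in MKP5-/- (log2 0.88, adjusted p = 6.26e-05).

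Of the 4 JAK genes, Jak1, Jak3 and Tyk2 rose in WT cells, with log2 differences of 0.40 (limma adjusted p = 0.000217), 0.51 (0.000168) and 0.19 (0.0109), and Jak2 did not pass the test (-0.05, 0.559). In MKP5-/- cells Jak1 (-0.22, adjusted p = 0.0236) and Jak2 (-0.21, adjusted p = 0.0329) were lower than in WT at 24 h, calls that were lost in 5 and 9 of 18 settings. Of all genes, 27.4% were called higher in WT cells at 24 h and 16.8% lower in MKP5-/-. Among 15 other negative regulators 7 rose and 3 fell in WT cells (median 0.16), beside 27.4% and 28% of all genes, and the fall of Ptpn11 (-0.15) was lost in 10 of 18 settings. Ptpn1, a tyrosine phosphatase that acts on JAKs, rose with the smallest p (log2 1.19, limma adjusted p = 4.52e-09), and Usp18, an interferon-induced brake on the type I receptor, fell (log2 -3.69, adjusted p = 2.92e-07). Usp18 is also counted in the list of Irf9 and interferon-stimulated genes. The remaining SOCS genes had smaller differences in WT cells: Socs5 rose by 0.28 (limma adjusted p = 0.015, lost in 2 of 18 settings), and Socs4 (-0.11), Socs6 (0.16) and Socs7 (-0.12) did not pass the test. Between the genotypes, none of the 15 was higher in MKP5-/- and 3 were lower, Socs6, Pias1 and Sh2b3, a share near the 16.8% of all genes. Socs6 was at 3.61 ± 0.381 RPKM in MKP5-/-, 6.01 ± 1.26 in WT after 24 h and 5.31 ± 0.0792 in WT at 0 h (log2 -0.72, limma adjusted p = 0.00287). The differences of Pias1 (-0.29) and Sh2b3 (-0.17) were lost in 5 and 9 of 18 settings.

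Known targets of Stat6 and of Stat3 moved in both directions. Of 7 tested Stat6 targets 4 rose and 3 fell in WT cells (median 0.48), beside 27.4% and 28% of all genes, and 3 were higher and 3 lower in MKP5-/- than in WT at 24 h (median 0.54), beside 11.8% and 16.8%. Among these, the calls of Irf4 (0.48 in WT cells and 0.54 between the genotypes) were lost in 5 and 6 of 18 settings, and that of Mgl2 between the genotypes (3.16) in 4. Mgl2 had 8, 19 and 27 reads in MKP5-/-, 3, 0 and 10 in WT after 24 h, and 55, 63 and 55 in WT at 0 h. Its fitted value thus depends on the offset used for 0 reads. Ccl24, an eosinophil chemokine, had 15 reads in MKP5-/-, 83 reads in WT after 24 h and none in WT at 0 h (log2 -2.02 between the genotypes, limma adjusted p = 0.00325). In WT cells this was at least 24.1-fold higher at 24 h, against a floor of 3 reads over the group. The counts of Stat6 targets include Ccl24, which passed the filter on low values through WT at 24 h, where it was high. A further gene, among the falls, passed that filter only through WT at 0 h, where that gene was high. Nothing is read from the calls of either. Tgm2, a transglutaminase, rose in WT cells (0.76) and was lower in MKP5-/- (-0.42, adjusted p = 0.000558), whereas the transcription factor Klf4 fell in WT cells (-2.73) and was higher in MKP5-/- (1.23, adjusted p = 2.9e-05). Of 12 Stat3 targets 5 rose and 6 fell in WT cells (median -0.14), beside 27.4% and 28% of all genes. The falls include Lcn2 and Hp, which passed the filter on low values through WT at 0 h, where they were high. Nothing is read from their calls, and the fall of Fgl2 (-0.36) was lost in 9 of 18 settings. Among the 12, Bcl3 rose (1.5), and Il1rn, the IL-1 receptor antagonist, fell (-3.16). Between the genotypes Junb (0.45), Il1rn (0.67) and Etv3 (0.35) were higher in MKP5-/-, beside 11.8% of all genes. Sbno2 was lower (-0.20, lost in 10 of 18 settings), beside 16.8%, and 8 did not pass the test (median 0.14). All 4 tested Stat5 targets fell in WT cells (median -1.34), beside 28% of all genes, while Stat5a and Stat5b rose. Between the genotypes 2 of the 4 were higher in MKP5-/-, Osm was lower and Pim1 was not called (median 0.55), beside 11.8% and 16.8% of all genes. The fall of Pim1 in WT cells (-0.28) was lost in 2 of 18 settings. Pim1 is also counted among the Stat3 targets and Osm among the ligands, so the counts of these lists are not independent. Ccnd2, cyclin D2, was at 3.31 ± 0.584 RPKM in MKP5-/-, 1.05 ± 0.135 in WT after 24 h and 12.7 ± 0.338 in WT at 0 h (log2 1.65 between the genotypes, limma adjusted p = 2.18e-05). Bcl2l1, which encodes the survival protein BCL-XL, was at 23.2 ± 0.826 RPKM in MKP5-/-, 12.6 ± 1.89 in WT after 24 h and 47.7 ± 2.03 in WT at 0 h (log2 0.89, adjusted p = 0.000111). The interferon response core was found in the promoter windows of 6 of the 12 genes of the Irf9 and interferon list that had one, and the STAT core in 3 of the 12.

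**Figure D5:**
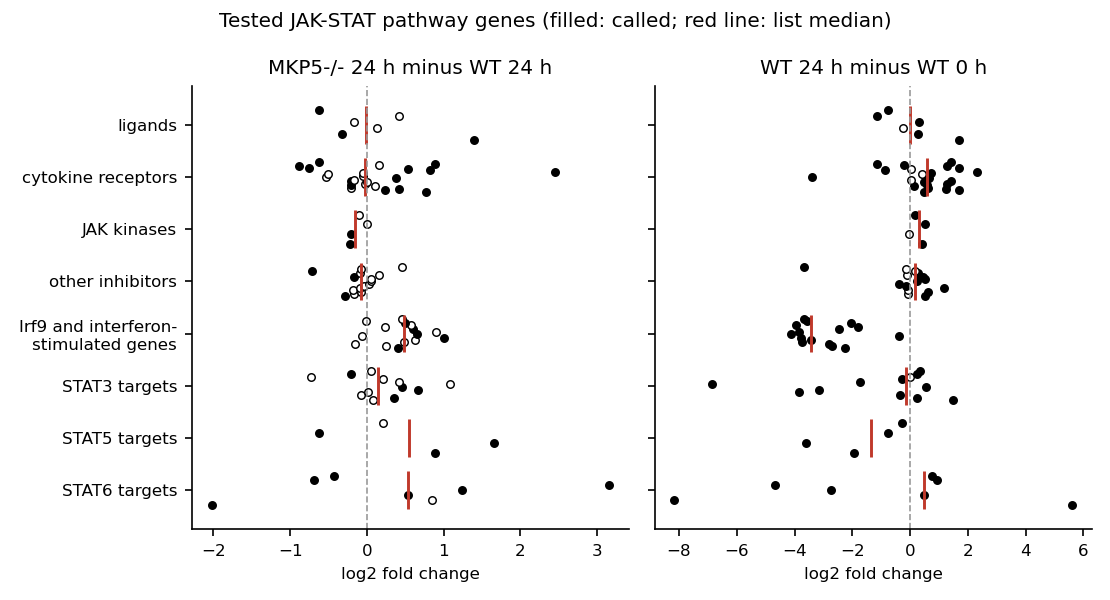
Log2 fold change (x axis) of the tested genes of each JAK-STAT list, in MKP5-/- against WT at 24 h (left) and WT at 24 h against WT at 0 h (right); each point is 1 gene, filled where the adjusted p was under 0.05, and red lines are list medians. The Irf9 and interferon list has its median at -3.44 in WT cells and the receptors at 0.57; the point furthest right is Ccl24, whose fitted value depends on the offset used for 0 reads.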

How the data were processed

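RNA-seq was analysed in 9 libraries in 3 groups of 3, taken from the sample labels. The file headers gave the same genotype and hours for each library. Total RNA (1 µg, Qiagen RNeasy) went to a sequencing company (Genewiz/Azenta), per the labels' protocols. Alignment was to GRCm39 with STAR, per the submitters' processing notes. Not given in the sources used here are the aligner's version, the annotation and how reads were counted (tool, strand, reads that match several genes), so overlapping and near-identical genes are uncertain.

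Each deposited file held 1 log2 normalized count per gene for 56775 genes, with TMM scaling, per the file headers. In each library the values equalled the log2 of (reads + 0.5) per gene length, shifted by 1 constant. Of the genes that could be checked, 84.5% came out as whole reads (within 0.02 reads) at exon lengths of the GENCODE M21 annotation. Socs1, Socs2, Socs3, Cish and Dusp10 came out whole. The STAT genes had too many reads for that check, and their reads and levels rest on the M21 length.

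The test covered the 14794 genes that reached 10 reads, at median depth, in 3 or more libraries and 15 reads over all of them. Because the values are log2, limma 3.58.1 (R 4.3.3, statmod 1.5.0) was used, with a mean per group, a mean-variance trend, the robust option and 6 residual degrees of freedom. Tests were two-sided, with Benjamini-Hochberg adjustment over all tested genes. Limma was tested on simulated data first. Levels and SDs are RPKM from the recovered reads. The fold changes are on the deposited scale, whose 0.5 reads can understate changes of genes with few reads. They can also add a difference where depths differ: Camp, at 0 reads in both 24 h groups, had a log2 difference of 0.51 between the genotypes. Limits for 0 reads cover counting error only. Motifs were searched in RefSeq promoter windows of GRCm38.p6, an earlier build than that of the files, and used for sequence only. Python 3.11.15, numpy 2.4.6, pandas 2.3.3 and matplotlib 3.10.9 served for the rest.

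The members, gene lists and tests were chosen with earlier results of these data known. Named genes were the members, Dusp10, up to 4 called genes with the smallest p per list and comparison (all where 5 or fewer were called), and for members whose group means spanned at least 1 log2 unit the 3 genes nearest in pattern. Irf9, Il4ra, Il6ra, Il6, Osm, Irf7, Bcl3, Lcn2, Hp, Fgl2 and the remaining SOCS genes were named after their values were seen where that rule did not cover them. Some genes that the rule would name are not reported here. The alternatives were other scalings, filters and offsets, limma-voom, no trend, fits of 2 groups, a replicate block and leaving out each library, 18 fits in all.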

Additional observations from a re-analysis of the deposited data

How the results depend on the processing

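Over 27 differences (9 members in 3 comparisons), 480 values came from the 18 alternative fits: 433 kept their direction and their side of the threshold, 37 kept the direction but lost the call, 4 gained it and 6 reversed. The reversals were all between the genotypes in values that never passed the test: Stat6 at 0.0351 with relative log expression scaling and 0.0766 with upper-quartile scaling, and from -0.0321 to 0.0234 on leaving out 1 library, and Socs2 from -0.49 to 0.12 on leaving out 1 library. The numbers of genes called higher and lower in MKP5-/- against WT at 24 h were 1739 and 2491 as reported, 2089 and 2005 with relative log expression scaling and 2489 and 1597 with upper-quartile scaling. In MKP5-/- at 24 h against WT at 0 h they were 3689 and 4621 as reported and 4783 and 3628 with upper-quartile scaling, which moved the median of all genes by 0.12 there and by 0.09 and 0.04 in the genotype and ox-LDL comparisons. The count of genes lower in MKP5-/- was 1652 without replicate 2 of WT at 24 h and at most 2408 on leaving out 1 library. The members called higher in MKP5-/- numbered 1 with upper-quartile scaling and 0 to 1 on leaving out 1 library. Those called higher in MKP5-/- at 24 h against WT at 0 h numbered 3 without the filter on low values and 3 to 5 on leaving out 1 library, 3 each without replicate 2 or 3 of WT at 0 h or of MKP5-/-. Libraries with the same replicate number correlated at -0.0201 to 0.19 in their deviations, over 0.1 for 2 of 9 pairs. Pairs with different numbers ranged from -0.1676 to 0.1217. These ranges overlap, so whether the numbers mark paired libraries was not settled. With the number as a replicate block, 8236, 4383 and 8457 genes were called for ox-LDL, genotype and MKP5-/- at 24 h against WT at 0 h, and the genotype call of Stat5a (adjusted p = 0.0681) and the Socs2 call against 0 h (0.0545) were lost. A stricter filter of 50 reads left Socs2 and Cish untested. The causes of these changes were not tested. Depth limits Socs1, Socs2 and Cish, which had 32 reads or fewer in each 24 h library.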
